A study of Homo sapiens with 29 samples.

Results

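Expression of 36 genes of the hypoxia response and of glycolysis was followed in BEAS-2B cells treated for 24 h with the carcinogen N-OH-PhIP. They were all probe sets whose gene symbol in the array's annotation table is 1 of the 36, and each gene was represented by its brightest probe set, that of highest mean log2(intensity + 16) over all arrays. Of the 36, 35 had a probe set, out of 19775 genes with one, and CA9, a carbonic anhydrase, was not analysed here. A minimum on mean level left 33 of them among the 12174 genes tested. EGLN3 and SLC2A3 fell under that minimum and are given as levels.

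Cells sense oxygen through prolyl hydroxylases of the EGLN family, which use oxygen to mark the transcription factor subunit HIF1A for destruction. When oxygen is short the subunit persists, pairs with ARNT and binds short DNA elements with the core ACGTG or GCGTG near its target genes, so that its activity is set largely at the protein level and not by its own mRNA. Its targets include glucose transporters and most enzymes that turn glucose into lactate, secreted factors such as VEGFA, and proteins of mitochondrial turnover and collagen synthesis. Many glycolytic genes are also highly expressed in proliferating cultured epithelial cells in normal air.

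BEAS-2B is a human bronchial epithelial line immortalised with viral genes. N-OH-PhIP is the N-hydroxylated form of PhIP, an amine formed in cooked meat and present in tobacco smoke, and the series asks at which dose its effect on transcription can be seen. There were 9 doses, 0.1, 0.5, 1, 5, 10, 50, 100, 500 and 1000 nM, which were set against the solvent DMSO. All cultures, the DMSO controls included, held 1% DMSO and grew in serum-free LHC-9 medium with retinoic acid and epinephrine, at about 70% confluence in a 5% CO2 atmosphere. The labels speak of triplicate cultures, and each group had 3 arrays but for the 2 at 0.5 nM (replicates 1 and 3). Doses are those of the sample titles, whose lowest is 0.1 nM, although the series' design text starts at 0.5 nM. No sample used here was labelled as grown at low oxygen, so the genes are described here under a chemical treatment only.

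Values are normalised intensities on a linear scale, and the level of 1 probe set cannot be set against that of another. Log2 changes are of log2(intensity + 16) with their SE, and a gene is called higher or lower at a limma adjusted p under 0.05. Within groups, correlations between arrays ran from 0.980 to 0.998. Of 10 epithelial markers, 8 had a probe set and 7 were tested, and KRT14 lay under the level minimum. At 1000 nM the log2 changes of the 4 called higher were 1.45 for KRT8, 1.15 for KRT5, 0.87 for ITGB4 and 0.34 for KRT19, CDH1 was lower at -0.08, and KRT18 (0.11) and EPCAM (0.03) did not pass. Their summed intensity ran from 23524 to 24974 at 1000 nM and from 24455 to 27603 at 500 nM, against 20437 to 21253 in DMSO. All 3 measured leukocyte and 5 endothelial markers were under the level minimum, with sums of 24.3 to 27.0 and 83.9 to 88.9 at 1000 nM, against 26.5 to 27.3 and 77.0 to 88.4 in DMSO. Of 6 fibroblast markers COL1A1 alone was above it (log2 change 0.39 at 1000 nM), and their sum was 815 to 901 at 1000 nM and 1000.3 to 1159 at 500 nM, against 637 to 719 in DMSO. The log2 ratio of 3′ to 5′ actin control probe sets, a sign of RNA and amplification quality, was 1.51 ± 0.04 at 1000 nM (SD, n = 3) and 1.67 ± 0.20 at 500 nM, against 2.20 ± 0.07 in DMSO. The GAPDH ratio was 0.17 at 1000 nM and 0.20 at 500 nM, against 0.14 in DMSO. The part of these shifts in the results below was not tested. In bulk RNA, fewer cells of a kind and less RNA per cell cannot be told apart.

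At 1000 nM, 27 of the 33 genes changed, 23 higher and 4 lower, with a median log2 change of 0.44. Over all genes tested 63.1% were called, 27.3% higher and 35.8% lower, and the median was -0.04. The 23 were aldolase C and most other glycolytic enzymes, the regulators PFKFB3, PFKFB4 and PDK1, and the hypoxia targets ADM, ANGPTL4, NDRG1, ANKRD37, KDM3A, MXI1 and BNIP3. The 4 lower by their brightest probe set were HIF1A, EGLN1, VEGFA and BNIP3L, of which EGLN1 and VEGFA also had probe sets called higher. Of the 23 higher, HK2 and TPI1 also had a probe set called lower. In 23 genes every 1000 nM array lay above every DMSO array and in 4 every one lay below, where 30.4% and 38.5% of all genes did so. At 500 nM, 21 genes changed, 19 higher and 2 lower (BNIP3L and EGLN1), with a median of 0.21, against 50% of all genes, 25.2% higher and 24.8% lower, and a median of 0.01. Arrays at 500 nM lay wholly above DMSO for 17 genes and wholly below for 2, against 23.7% and 23.8% of all genes. Both comparisons use the same 3 DMSO arrays, and genes read on the same arrays are not independent observations.

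**Figure D1:**
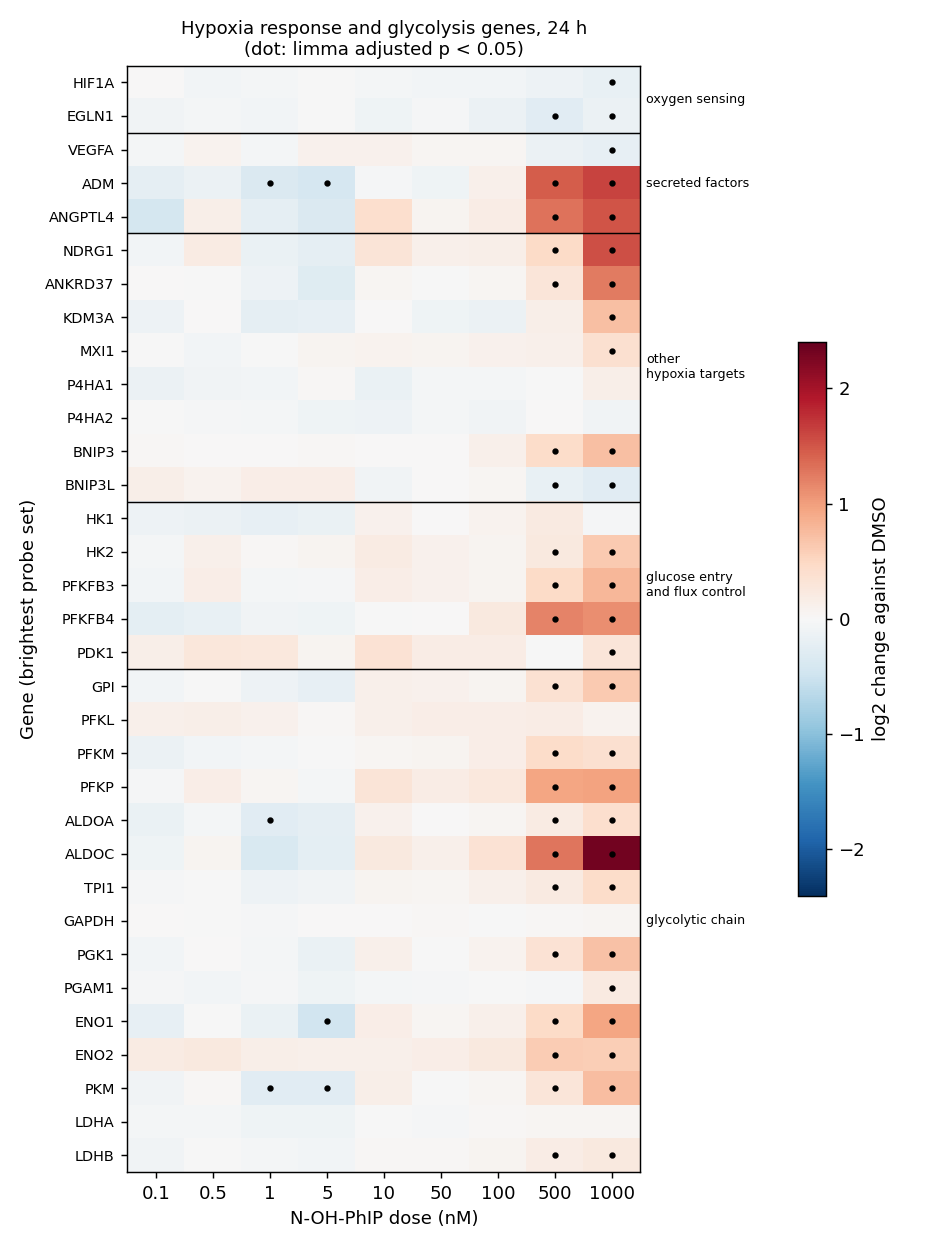
Log2 change against DMSO of the 33 tested genes (down the page, grouped by role) at 9 doses in nM (across), by brightest probe set, with a dot where limma's adjusted p is under 0.05. Dots fill most of the 500 and 1000 nM columns, are absent at 0.1, 0.5 and 10 to 100 nM, and mark 3 lower genes each at 1 and 5 nM.

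Promoters of 6 genes are shown because they carry the core letters bound by HIF in very different number. Each runs from 250 bases before to 50 after the start in RefSeq (GRCh38.p14), 5′ to 3′ on the strand of the gene, and capitals mark ACGTG or GCGTG on either strand. A CACGTG is a match on both strands and counts 2 times.
ALDOC (chr17:28576846-28577145, minus strand, 5 matches): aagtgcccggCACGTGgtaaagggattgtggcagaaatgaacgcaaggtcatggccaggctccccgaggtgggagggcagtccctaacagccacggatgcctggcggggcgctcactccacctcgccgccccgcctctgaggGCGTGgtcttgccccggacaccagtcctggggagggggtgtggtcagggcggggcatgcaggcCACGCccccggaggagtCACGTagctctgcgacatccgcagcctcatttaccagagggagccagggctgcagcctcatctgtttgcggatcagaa
PGK1 (chrX:78103998-78104297, plus strand, 4 matches): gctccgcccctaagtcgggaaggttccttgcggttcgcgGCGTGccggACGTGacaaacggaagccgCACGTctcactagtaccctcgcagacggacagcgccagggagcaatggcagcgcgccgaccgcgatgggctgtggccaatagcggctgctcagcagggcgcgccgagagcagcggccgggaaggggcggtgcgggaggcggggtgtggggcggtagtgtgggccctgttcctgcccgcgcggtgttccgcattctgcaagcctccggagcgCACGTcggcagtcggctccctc
ANKRD37 (chr4:185396591-185396890, plus strand, 3 matches): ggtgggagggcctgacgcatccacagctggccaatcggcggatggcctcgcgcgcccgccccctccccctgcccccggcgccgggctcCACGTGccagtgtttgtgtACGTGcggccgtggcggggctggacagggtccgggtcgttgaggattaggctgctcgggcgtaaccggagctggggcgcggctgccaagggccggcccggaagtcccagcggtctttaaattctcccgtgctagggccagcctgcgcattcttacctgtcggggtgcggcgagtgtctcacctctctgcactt
ADM (chr11:10304823-10305122, plus strand, 1 match): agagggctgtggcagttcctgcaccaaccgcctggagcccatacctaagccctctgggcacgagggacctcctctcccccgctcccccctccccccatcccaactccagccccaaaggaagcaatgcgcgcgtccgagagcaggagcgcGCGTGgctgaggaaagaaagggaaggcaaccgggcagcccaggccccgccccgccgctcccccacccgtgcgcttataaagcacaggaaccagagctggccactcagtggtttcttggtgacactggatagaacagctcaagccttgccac
LDHA (chr11:18394313-18394612, plus strand, 6 matches): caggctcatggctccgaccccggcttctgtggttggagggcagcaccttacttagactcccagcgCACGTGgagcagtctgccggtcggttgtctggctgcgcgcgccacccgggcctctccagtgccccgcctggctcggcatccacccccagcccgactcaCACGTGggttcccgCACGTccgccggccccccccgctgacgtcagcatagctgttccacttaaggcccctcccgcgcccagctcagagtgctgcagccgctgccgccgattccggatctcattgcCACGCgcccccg
EGLN3 (chr14:33951025-33951324, minus strand, 0 matches): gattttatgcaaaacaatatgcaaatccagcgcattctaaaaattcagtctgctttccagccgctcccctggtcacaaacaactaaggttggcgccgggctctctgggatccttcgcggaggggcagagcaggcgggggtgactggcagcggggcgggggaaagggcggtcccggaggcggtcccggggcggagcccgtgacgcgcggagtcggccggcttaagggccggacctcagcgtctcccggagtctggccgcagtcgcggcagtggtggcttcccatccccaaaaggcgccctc
ALDOC, PGK1, ANKRD37 and ADM were called higher at 1000 nM, LDHA did not pass the test, and EGLN3 lay under the level minimum. LDHA has a second start, not shown, with 1 match.

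Of the 32 genes found in the promoter table, 29 (90.6%) had at least 1 start with a match, against 52.4% of all 27305 genes there. Among genes with a single start the shares were 17 of 20 (85%) and 47.3%. A match was found for 21 of the 22 genes that were higher at 1000 nM, for both that were lower, and for 5 of the 6 that were not called. The members include well-known HIF targets, so these shares describe the choice of genes, and a match is not evidence of binding. NDRG1, VEGFA, BNIP3L and SLC2A3 were not in that table.

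Of the oxygen-sensing genes, the HIF1A and EGLN1 transcripts fell at 1000 nM by their brightest probe sets, and EGLN3 gave low signals only. HIF1A had 4265, 4383 and 4563 at 1000 nM, against 5263, 4821 and 4948 in DMSO, with no overlap and a log2 change of -0.19 ± 0.05 (limma adjusted p = 0.00472). The 500 nM arrays had 4788, 4180 and 4923, overlapping DMSO (-0.12 ± 0.05, adjusted p = 0.0835), and the change passed without replicate 3 (-0.16, adjusted p = 0.021) or with quantile normalisation (-0.13, adjusted p = 0.035). EGLN1 encodes PHD2, the main HIF prolyl hydroxylase in most cells. It had 2238, 2195 and 2378 at 1000 nM, against 2474, 2599 and 2470 in DMSO (-0.15 ± 0.05, adjusted p = 0.0137). At 500 nM its change was -0.27 ± 0.05 (adjusted p = 7.05e-05), and it was higher at 1000 nM than at 500 nM by 0.13 ± 0.05. The EGLN1 call at 1000 nM is lost without DMSO replicate 2 (adjusted p = 0.0667) or 1000 nM replicate 2 (0.0659), and its other probe sets moved the other way, as given below.

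EGLN3 encodes PHD3, a hydroxylase that HIF itself induces in many cell types. The brighter of its 2 probe sets had 105, 66.4 and 83.2 at 1000 nM and 39.1, 50.3 and 49.6 at 500 nM, against 20.9, 29.7 and 23.7 in DMSO. The 3 groups did not overlap. The other had 43.3, 38.1 and 34.5 at 1000 nM and 33.3, 30.6 and 59.8 at 500 nM, against 23.9, 23.0 and 22.9 in DMSO, so that both doses lay above DMSO but overlapped each other. The mean of the brighter over all arrays was under the level minimum of 37.4, and the 8 other groups averaged 25.5 or less, levels that were not shown to be above background.

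Of the 3 secreted factors, ADM and ANGPTL4 rose at both high doses, and the probe sets of VEGFA disagreed at 1000 nM. ADM encodes adrenomedullin, a vasodilator peptide. It had 1710, 1710 and 1666 at 1000 nM, against 507, 572 and 547 in DMSO, a log2 change of 1.62 ± 0.08 (limma adjusted p = 8.66e-15). In the 500 nM arrays ADM had 1415, 1468 and 1655, with a change of 1.45 ± 0.08 (adjusted p = 1.74e-13). Every array of both doses lay above every DMSO array, and 1000 nM exceeded 500 nM by 0.17 ± 0.08, which did not pass (adjusted p = 0.106). ANGPTL4, an inhibitor of lipoprotein lipase, had 297, 296 and 254 at 1000 nM, against 66.5, 100.1 and 101 in DMSO (1.52 ± 0.15, adjusted p = 2.03e-09). Its 500 nM arrays had 262, 250 and 215 (1.31 ± 0.15, adjusted p = 6.15e-08), again without overlap with DMSO. A dimmer ANGPTL4 probe set gave 0.58 ± 0.12 at 1000 nM.

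VEGFA, the main angiogenic growth factor, gave a different value for each probe set. The brightest had 1473, 1585 and 1769 at 1000 nM, against 1827, 1805 and 1879 in DMSO, a log2 change of -0.19 ± 0.08 (limma adjusted p = 0.0415). This call is lost under 4 of the other settings and when any DMSO array or 1000 nM replicate 1 or 2 is left out, with adjusted p up to 0.212. The next brightest gave 0.02 ± 0.08. The 2 dimmest were higher, by 0.94 ± 0.14 and 0.97 ± 0.14, so that no direction can be given for the gene. At 500 nM the brightest gave -0.13 ± 0.08 (adjusted p = 0.181).

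Among 8 other hypoxia targets, 5 rose and 1 fell at 1000 nM, with a median log2 change of 0.55, where 27.3% of all genes were higher and 35.8% lower. At 500 nM 3 rose and 1 fell and the median was 0.13, so that the share called was that of all genes (50%). NDRG1, a stress-responsive cytoplasmic protein, had 2164, 1943 and 1877 at 1000 nM, against 660, 649 and 700 in DMSO, and changed by 1.55 ± 0.09 (limma adjusted p = 9.48e-14). At 500 nM NDRG1 had 995, 1059 and 768 and changed by 0.47 ± 0.09 (adjusted p = 0.000108). ANKRD37 encodes a small ankyrin-repeat protein known as a HIF target. It had 717, 842 and 806 at 1000 nM, against 285, 360.3 and 326 in DMSO (1.25 ± 0.09, adjusted p = 1.09e-11). Its 500 nM arrays, at 379.6, 440.1 and 382, lay just above those of DMSO (0.30 ± 0.09, adjusted p = 0.00988). That call is lost without DMSO replicate 1 (adjusted p = 0.0878) or 500 nM replicate 2 (adjusted p = 0.0631).

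Of the remaining 6, KDM3A, MXI1 and BNIP3 rose, BNIP3L fell, and the collagen prolyl hydroxylases P4HA1 and P4HA2 did not pass the test by their brightest probe sets. KDM3A, a histone H3 lysine 9 demethylase, had 1169, 845 and 940 at 1000 nM, against 501, 598 and 657 in DMSO (0.73 ± 0.11, limma adjusted p = 1.47e-06). MXI1, an antagonist of MYC, changed by 0.38 ± 0.08 (adjusted p = 0.000152). Neither passed at 500 nM, where their changes were both 0.13, although MXI1 passed without 500 nM replicate 2 (0.27, adjusted p = 0.000835). BNIP3, a mitochondrial receptor for mitophagy, had 2983, 2700 and 2750.1 at 1000 nM, against 1718, 1629 and 1751 in DMSO (0.72 ± 0.06, adjusted p = 4.01e-10), and a second probe set gave 0.76 ± 0.07. Its paralogue BNIP3L had 1980.3, 1762 and 1763, against 2276, 2083 and 2325 in DMSO (-0.28 ± 0.05, adjusted p = 9.56e-05). A second BNIP3L probe set gave 0.04 ± 0.06, and at 500 nM the call on the brighter (-0.19 ± 0.05) is lost without 500 nM replicate 1 (adjusted p = 0.0508). P4HA1 gave 0.14 ± 0.09 (adjusted p = 0.214) and P4HA2 gave -0.09 ± 0.08 (adjusted p = 0.325) at 1000 nM. A second P4HA2 probe set had 1033, 927 and 1045 at 1000 nM, against 1298, 1407 and 1326 in DMSO, with no overlap (-0.42 ± 0.06, adjusted p = 2.9e-06), and was also lower at 500 nM (-0.28 ± 0.06, adjusted p = 0.000734). With the mean over its probe sets P4HA2 was lower at 1000 nM (-0.19, adjusted p = 0.000671).

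**Figure D2:**
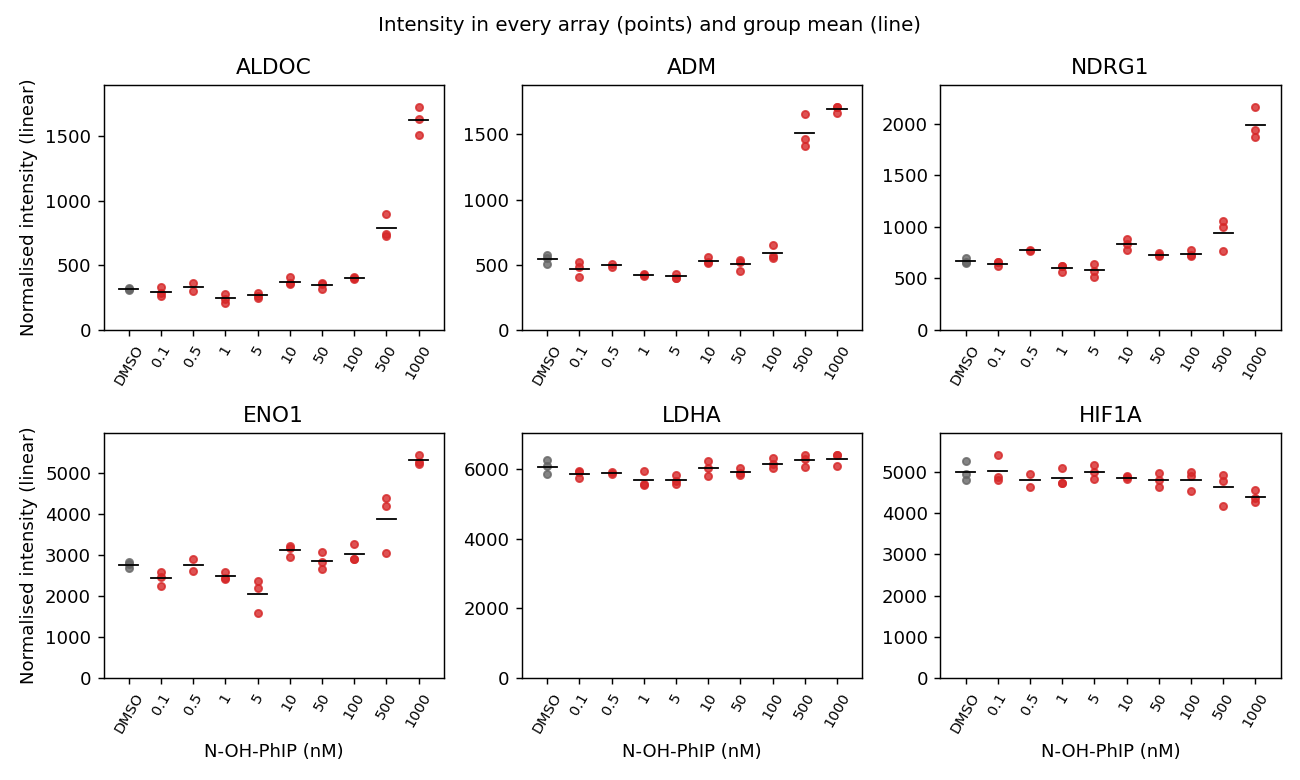
Normalised intensity (linear axis from 0) in every array (points) with the group mean (line) for ALDOC, ADM, NDRG1, ENO1, LDHA and HIF1A, from DMSO at the left to 1000 nM at the right. ADM is already near its highest level at 500 nM, ALDOC and NDRG1 rise again between 500 and 1000 nM, and LDHA arrays at 1000 nM overlap those of DMSO.

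Genes that admit glucose into the pathway or set its flux rose in 4 of 5 cases at 1000 nM and in 3 of 5 at 500 nM, with medians of 0.63 and 0.23, where 27.3% and 25.2% of all genes were higher. PFKFB3 and PFKFB4 make fructose 2,6-bisphosphate, the activator of phosphofructokinase. PFKFB3 had 5216, 4621 and 4854 at 1000 nM, against 2735, 2934 and 2775 in DMSO (0.79 ± 0.06, limma adjusted p = 2.29e-11), and 4086, 3829 and 3742 at 500 nM (0.46 ± 0.06). PFKFB4 had 379, 393 and 318 at 1000 nM, against 139, 163 and 175.5 in DMSO (1.12 ± 0.13, adjusted p = 4.46e-08). At 500 nM PFKFB4 had 457, 454 and 273 (1.20 ± 0.13), and all 6 of these arrays lay above DMSO. Set against 500 nM, 1000 nM gave -0.08 ± 0.13 for PFKFB4 (adjusted p = 0.635) and 0.33 ± 0.06 for PFKFB3 (adjusted p = 8.74e-05).

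Hexokinases carry out the first step. HK2, the inducible form, had 1702, 1573 and 1684 at 1000 nM, against 1033, 1024 and 1137 in DMSO (0.63 ± 0.08, limma adjusted p = 1.31e-07). A dim HK2 probe set was called lower at that dose, and with the mean over its probe sets the call is lost (0.02, adjusted p = 0.805). At 500 nM its change was 0.23 ± 0.08 (adjusted p = 0.0185), a call lost without DMSO replicate 1 or 2 (adjusted p = 0.0649 and 0.0694) or 500 nM replicate 3 (0.12, adjusted p = 0.172). HK1, the constitutive form, gave -0.02 ± 0.10 at 1000 nM (adjusted p = 0.868) and 0.21 ± 0.10 at 500 nM (adjusted p = 0.0853), where it passed without replicate 3 (0.32, adjusted p = 0.00758). PDK1, a kinase that shuts off pyruvate dehydrogenase, changed by 0.29 ± 0.09 at 1000 nM (adjusted p = 0.00504) and by -0.01 ± 0.09 at 500 nM. It averaged 883 at 1000 nM and 719 in DMSO, but 796, 872, 866, 755, 916, 822 and 818 at 0.1, 0.5, 1, 5, 10, 50 and 100 nM. PDK1 was not called in the trend over dose, and its second tested probe set was not called at 1000 nM (99.2 on average, against 87.5 in DMSO). SLC2A3, the GLUT3 glucose transporter, stayed between 8.48 and 14.4 in the arrays of 1000 nM, 500 nM and DMSO, far under the level minimum.

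Of the 15 tested enzymes of the chain below hexokinase, 12 rose and 0 fell at 1000 nM, and 11 rose and 0 fell at 500 nM, with medians of 0.44 and 0.29. Of all genes, 27.3% were higher and 35.8% lower at 1000 nM, and 25.2% and 24.8% at 500 nM. At an unadjusted p under 0.05 the count among all 33 genes was 27 at 1000 nM and 23 at 500 nM, with the share of all genes not counted. The largest change was in ALDOC, the aldolase best known from brain. ALDOC had 1638, 1727 and 1511 at 1000 nM, against 307, 321 and 315 in DMSO (2.31 ± 0.10, limma adjusted p = 3.72e-16). The 500 nM arrays had 745, 895 and 731 (1.28 ± 0.10, adjusted p = 6.86e-11), so that the 3 groups lay wholly apart. ALDOA, the widespread aldolase, had 6300, 6125 and 6163 at 1000 nM, against 4484, 4665 and 4855 in DMSO (0.41 ± 0.07, adjusted p = 7.56e-06). At 500 nM its change of 0.20 ± 0.07 is lost without DMSO replicate 1 (adjusted p = 0.0693) or 500 nM replicate 2 (adjusted p = 0.157).

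Before the aldolase step, GPI, which isomerises glucose 6-phosphate, had 2485, 2463 and 2204 at 1000 nM, against 1500.5, 1515 and 1580.2 in DMSO (0.63 ± 0.09, limma adjusted p = 1.42e-06). At 500 nM its change was 0.36 ± 0.09, and 0.22 without 500 nM replicate 2. The GPI call at 500 nM is lost with only the groups compared in the fit (adjusted p = 0.0654). Of the 3 phosphofructokinase genes, PFKP (platelet type) rose most. It had 2197, 2356 and 1949 at 1000 nM, against 1084, 1062 and 1162 in DMSO (0.96 ± 0.10, adjusted p = 6.3e-09). Its change at 500 nM was 0.95 ± 0.10, and the difference between the 2 doses was 0.01 ± 0.10. PFKM, the muscle type, changed by 0.38 ± 0.07 at 1000 nM and by 0.44 ± 0.07 at 500 nM. PFKL, the liver type, gave 0.09 ± 0.10 and 0.18 ± 0.10, neither of which passed (adjusted p = 0.453 and 0.135), and 0.31 at 500 nM without replicate 3 (adjusted p = 0.0114).

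Below aldolase, the steps differed widely in size at 1000 nM by their brightest probe sets. TPI1, which interconverts the triose phosphates, gave 0.44 ± 0.05 (limma adjusted p = 6.54e-09). Another TPI1 probe set was called lower, and with the mean over its probe sets the call is lost (0.09, adjusted p = 0.12). GAPDH, the next step, gave 0.06 ± 0.03 (adjusted p = 0.0806) with 10943, 10833 and 10154 at 1000 nM, against 10031, 10265 and 10409.8 in DMSO. Its 2 other tested probe sets were called higher, both by 0.08 ± 0.03. GAPDH passed, at somewhat larger values, with median centring (0.07, adjusted p = 0.0385), with the mean over its probe sets (0.07, adjusted p = 0.0127) and without 1000 nM replicate 3 (0.09, adjusted p = 0.00685). PGK1, the first step that yields ATP, had 4392, 4623 and 4408 at 1000 nM, against 2637, 2841 and 2764 in DMSO (0.70 ± 0.06, adjusted p = 6.98e-11). PGAM1, a phosphoglycerate mutase, gave 0.21 ± 0.05 at 1000 nM (adjusted p = 0.000357) and -0.03 ± 0.05 at 500 nM. ENO1, the main enolase, had 5264, 5423 and 5214 at 1000 nM, against 2676, 2779.9 and 2819 in DMSO (0.94 ± 0.11, adjusted p = 6.11e-08). The 500 nM arrays had 4189, 4379 and 3033 (0.47 ± 0.11), with replicate 3 the lowest. Among the 500 nM arrays, replicate 3 was also the lowest for GPI, PFKP, PFKFB4, ALDOA, TPI1, NDRG1, PGAM1 and PKM. It was the highest for other members, such as ADM, HK2, MXI1 and P4HA1. ENO2, the neuronal enolase, gave 0.59 ± 0.09 at 1000 nM and 0.60 ± 0.09 at 500 nM. PKM, pyruvate kinase, had 5093, 5013 and 4898 at 1000 nM, against 2901, 2965 and 3047 in DMSO (0.75 ± 0.07, adjusted p = 3.21e-10).

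The lactate dehydrogenases closed the chain with small changes. LDHA had 6401, 6091 and 6403 at 1000 nM, against 6085, 6265 and 5869 in DMSO, and the groups overlapped (0.05 ± 0.03, limma adjusted p = 0.185). LDHB had 8141, 8337 and 8321, against 6855, 7058 and 7040.0 in DMSO (0.24 ± 0.03, adjusted p = 2.04e-08). GAPDH, PGK1, ENO1, LDHA, LDHB and TPI1 have near-identical pseudogene copies, so their probe sets may take signal from more than 1 locus.

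**Figure D3:**
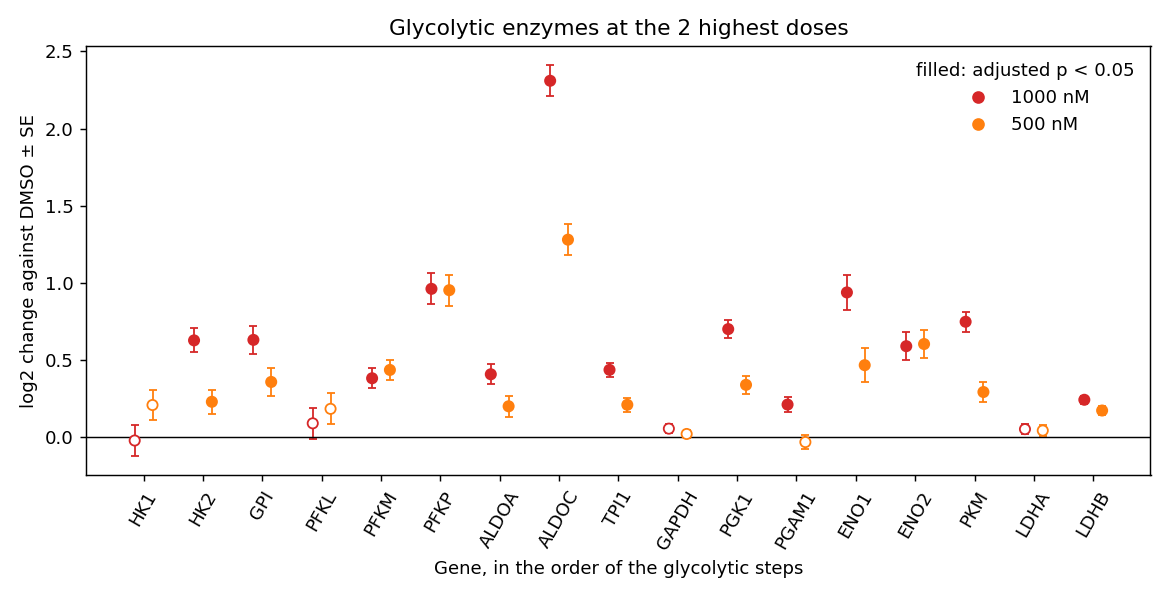
Log2 change against DMSO (points, SE bars) of hexokinases and the enzymes below them in the order of the glycolytic steps, at 1000 nM (red, left) and 500 nM (orange, right), filled where limma's adjusted p is under 0.05. ALDOC stands highest at both doses, PFKP, PFKM and ENO2 have nearly the same value at both, and HK1, PFKL, GAPDH and LDHA are unfilled at both, as is PGAM1 at 500 nM.

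Between the 2 highest doses some of the genes rose further and others did not pass the test. At 1000 nM against 500 nM, 18 of 33 rose and 0 fell, with a median log2 change of 0.21, against 47.2% of all genes called, 15.4% higher and 31.8% lower, and a median of -0.07. At an unadjusted p under 0.05 there were 19, with the share of all genes not counted. The largest were NDRG1 (1.08 ± 0.09, limma adjusted p = 9.17e-10), ALDOC (1.03 ± 0.10, adjusted p = 1.03e-08), ANKRD37 (0.95 ± 0.09, adjusted p = 1.08e-08) and KDM3A (0.60 ± 0.11, adjusted p = 5.9e-05). ADM, ANGPTL4, PFKFB4, PFKP, PFKM and ENO2 did not pass, with changes of 0.17, 0.21, -0.08, 0.01, -0.05 and -0.01 and SEs of 0.07 to 0.15. These 6 had passed at 500 nM against DMSO.

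At 500 nM against 100 nM, 16 genes rose and 2 fell (EGLN1 and BNIP3L), with a median log2 change of 0.16, against 40.4% of all genes called, 18.8% higher and 21.5% lower. ADM rose by 1.33 ± 0.08 (limma adjusted p = 3.62e-12), ANGPTL4 by 1.12 ± 0.15, PFKFB4 by 0.96 ± 0.13, ALDOC by 0.94 ± 0.10 and PFKP by 0.69 ± 0.10. Neither of these 2 steps uses DMSO arrays. With only the 2 groups in the fit the count was 10. Across the 26 treated arrays, 28 genes were called for a slope on log10 dose, 25 up and 3 down (HIF1A, EGLN1 and BNIP3L). Of all genes 61.2% were called, 28.6% up and 32.7% down. A straight line was fitted, so a called slope does not show a graded change over all doses. BNIP3 averaged 1734, 1713, 1710, 1733, 1707, 1721 and 1843 from 0.1 to 100 nM, then 2307 and 2811 at 500 and 1000 nM. ALDOC also differed between the low and middle doses, as given below. The steepest slopes per 10-fold dose were 0.50 ± 0.08 for ALDOC, 0.45 ± 0.07 for ADM, 0.43 ± 0.06 for ANGPTL4 and 0.34 ± 0.05 for PFKFB4. The slope of LDHA was 0.03 ± 0.01 (adjusted p = 0.000706).

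Below 500 nM few of the genes passed against DMSO. At 100, 50 and 10 nM 0 passed, against 3.89%, 0.287% and 0.263% of all genes, and 7, 1 and 10 had an unadjusted p under 0.05. Of the 33 changes, 26, 22 and 24 were positive, with medians of 0.07, 0.02 and 0.08, where all genes had medians of 0.02, 0.03 and 0.03. At 0.5 and 0.1 nM 0 passed as well, against 0.0329% and 0.427%, with 3 and 7 at an unadjusted p under 0.05. Shares of all genes with an unadjusted p under 0.05 or with a positive change were not counted. Those counts therefore do not set the members apart from other genes. At 5 nM ENO1 (-0.45 ± 0.11, limma adjusted p = 0.0419), ADM (-0.39 ± 0.08, adjusted p = 0.0151) and PKM (-0.27 ± 0.07, adjusted p = 0.0403) were lower, 3 genes against 0.977% of all, 0.649% lower. At 1 nM ADM (-0.36 ± 0.08, adjusted p = 0.0356), ALDOA (-0.27 ± 0.07, adjusted p = 0.0459) and PKM (-0.27 ± 0.07, adjusted p = 0.0479) were lower, against 0.739%, 0.517% lower. These calls depended on single arrays. Both counts were 1 without DMSO replicate 1 and 0 without DMSO replicate 2 or 3. The count at 1 nM was 0 without its own replicate 1 or 3, and that at 5 nM was 0 without its replicate 1 and 1 without its replicate 3.

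The middle doses were also set against the low doses, without DMSO. Over 10 to 100 nM against 0.1 to 5 nM, a contrast chosen after seeing the data, 17 genes were higher and 1 (BNIP3L) lower, with a median log2 change of 0.09, against 11.8% of all genes called, 7.37% higher and 4.44% lower, and a median of 0.01. ANGPTL4 was higher by 0.43 ± 0.08, ALDOC by 0.39 ± 0.06, ENO1 by 0.32 ± 0.06, ADM by 0.26 ± 0.05 and NDRG1 by 0.25 ± 0.05, and 11 of the 15 enzymes of the chain were called. From DMSO through 0.1, 0.5, 1 and 5 nM, ALDOC averaged 315, 295, 331, 243 and 266, and at 10, 50 and 100 nM it averaged 374, 344 and 403. BNIP3L went the other way, at -0.14 ± 0.03. The actin 3′ to 5′ log2 ratio was 2.17, 2.16 and 2.16 at 10, 50 and 100 nM, against 2.30, 2.34, 2.51 and 2.33 at 0.1, 0.5, 1 and 5 nM, and its part in this contrast was not tested.

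Where a gene had several tested probe sets, they did not always move together. Of the 16 such genes, 7 had all probe sets called the same way at 1000 nM (ALDOA, ANGPTL4, BNIP3, ENO1, LDHB, PGK1 and PKM), and 4 had probe sets called in opposite directions (EGLN1, HK2, TPI1 and VEGFA). The 4 dimmer PGK1 probe sets gave 0.90 to 1.03, against 0.70 for the brightest, and the 2 dimmer of ENO1 gave 0.94 and 1.03. The dimmest ALDOA probe set averaged 2345 at 1000 nM, against 1378 in DMSO, and the brightest 6196 against 4668. A dimmer PKM probe set had 465, 490 and 461 at 1000 nM, against 169, 242 and 218 in DMSO. The size of a change thus depended on the probe set. EGLN1 was lower by its brightest probe set and higher, by 0.57 ± 0.12 and 0.69 ± 0.13, by the 2 dimmer ones. A dim HK2 probe set had 34.8, 32.3 and 29.9 at 1000 nM, against 47.6, 52.4 and 46.7 in DMSO (-0.43 ± 0.12), and 76.6, 87.6 and 86.0 at 500 nM. The dimmest TPI1 probe set had 246, 282 and 282 at 1000 nM, against 373, 410 and 433 in DMSO (-0.56 ± 0.09). At 500 nM no gene had probe sets called in opposite directions. Positions of the probes within the transcripts were not used here, so isoform, probe affinity and cross-hybridisation were not separated.

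**Figure D4:**
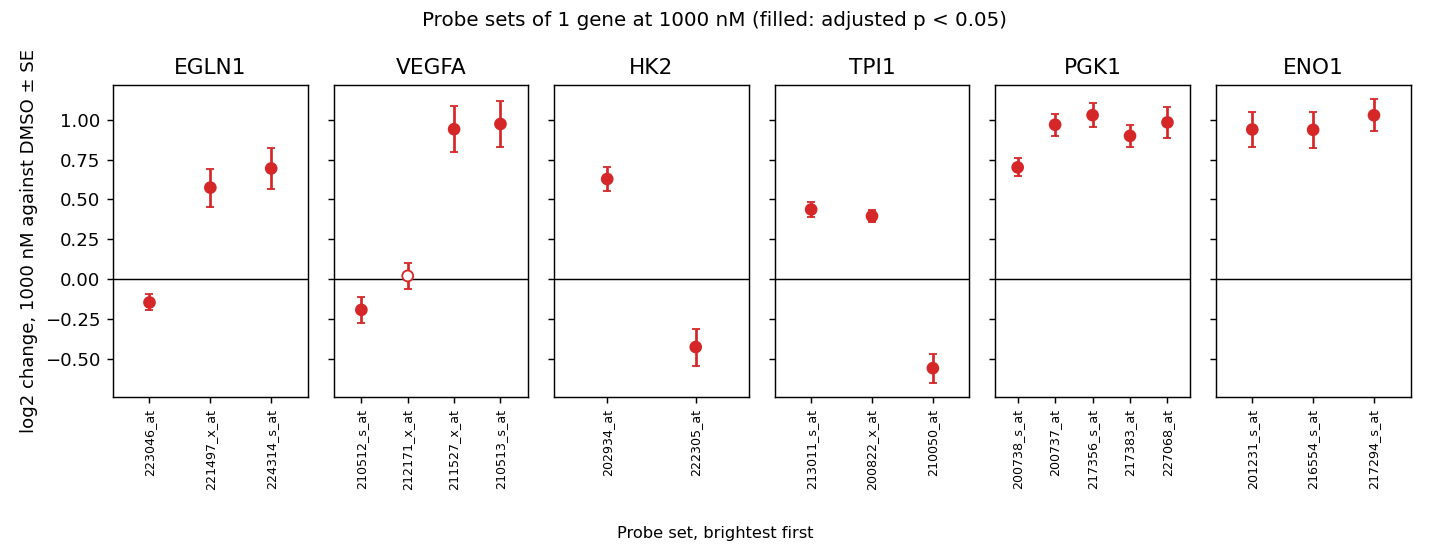
Log2 change at 1000 nM against DMSO (SE bars) of every tested probe set of EGLN1, VEGFA, HK2, TPI1, PGK1 and ENO1, brightest first within a gene, filled where limma's adjusted p is under 0.05. The probe sets of PGK1 and ENO1 all lie above 0, and those of the other 4 genes lie on both sides.

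Related genes outside the 36 gave a mixed picture. Of 14 tested regulators of the HIF pathway, 4 rose and 3 fell at 1000 nM, with a median log2 change of 0.05, a share called below the 63.1% of all genes and a share higher near their 27.3%. CITED2, which competes with HIF for its coactivator, averaged 826 at 1000 nM, against 265 in DMSO (1.59 ± 0.12, limma adjusted p = 2.32e-11), while ARNT, the partner of HIF1A, averaged 988 against 1383.5 (-0.48 ± 0.10, adjusted p = 0.000296). ARNT2 averaged 87.6 at 1000 nM and 172 at 500 nM, against 54.6 in DMSO (0.55 ± 0.14, adjusted p = 0.00101, and 1.40 ± 0.14, adjusted p = 3.92e-09). EPAS1, which encodes HIF-2 alpha, rose by 0.33 ± 0.04 and CUL2, of the VHL ubiquitin ligase, fell by 0.44 ± 0.05 on the log2 scale at 1000 nM. ELOC rose by 0.34 ± 0.04 and CREBBP fell by 0.33 ± 0.06.

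Of 26 other hypoxia-inducible genes, 12 rose and 7 fell at 1000 nM and 7 rose and 7 fell at 500 nM, with medians of 0.25 and 0.04. Over all genes 27.3% were higher and 35.8% lower at 1000 nM, and 25.2% and 24.8% at 500 nM, close to the shares of this list at 500 nM. TFRC, the transferrin receptor, PPP1R3C, a glycogen-targeting subunit, LOX, a collagen cross-linking oxidase, and BHLHE40, a repressor, rose by 1.61, 1.22, 1.07 and 0.88. Among those lower, KDM4C changed by -1.54, ZNF395 by -0.66, INSIG2 by -0.63 and STC2 by -0.50. Of 24 other genes of glycolysis, pyruvate and lactate, 10 rose and 2 fell at 1000 nM, with a median of 0.11. The share called was below the 63.1% of all genes, of which 27.3% were higher and 35.8% lower. At 500 nM 11 rose and 1 fell, with a median of 0.16, against 25.2% and 24.8% of all genes. Among those higher at 1000 nM were TIGAR, a p53 target that lowers fructose 2,6-bisphosphate, at 0.71 ± 0.05, BPGM at 0.68 ± 0.09, ENO3 at 0.64 ± 0.09 and PDK4 at 0.54 ± 0.13. Those lower at that dose were GALM (-0.33) and PGM1 (-0.19).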

How the data were processed

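RNA of 29 BEAS-2B cultures was amplified (NuGEN Ovation) and hybridised to an Affymetrix 3′ array. GCOS is the software named in the submitters' processing notes, with its version not given in the sources used here. Each probe set has 1 deposited intensity per array, linear and already normalised by the authors, by a method that neither labels nor headers state. Their 2% trimmed means ran from 299 to 309, a spread of 3.18%, within the 5% set for using them as they stand. Symbols were taken from the annotation table of the array. The 2 probe sets with several symbols, 1 of them a member, and 3 control probe sets with a member's symbol were not used.

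The deposited intensities were turned into log2(intensity + 16), which shrinks the changes of dim probe sets. Of 54675 probe sets, 62 were controls, and 27307 with a mean log2 at or above the median of 5.74 (intensity 37.4) were tested. One limma fit (3.58.1, R 4.3.3) held a mean for each of 10 groups, with a mean-variance trend and 19 residual degrees of freedom. Tests were two-sided, with Benjamini-Hochberg adjustment over the 27307 probe sets. The trend was fitted to the 26 treated arrays against log10 dose. Comparisons with DMSO share its 3 arrays, and p-values measure the spread between cultures. The code was tested on simulated data, and figures were drawn with matplotlib 3.10.9.

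Members and lists were chosen with earlier results of these data known. Every member could be named, with values in every array for those called with an absolute log2 change of at least 1, and from the other lists up to 4 genes each way by size at 1000 nM. Detection calls were not used. Replicate numbers were not used to pair the samples in the main fit. Deviations from the group means correlated at -0.516 to 0.746 over 126 same-number pairs, with a median of 0.0141, against -0.0204 for other numbers. Whether some same-number arrays shared their handling was not tested.

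Alternatives were an offset of 1, quantile normalisation, centring on array medians, all levels or only the upper 25%, no mean-variance trend, a replicate block, only the groups compared in the fit, a mean over every probe set of the gene, a trend linear in dose, and each array left out in turn.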

Additional observations from a re-analysis of the deposited data

How the results depend on the processing

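Counts of members called held within 1.5 times of the value in the report for 1000 nM and 500 nM against DMSO, 1000 nM against 500 nM, 10 to 100 nM against 0.1 to 5 nM and the trend, under every alternative run. With 1 array left out they ran from 25 to 28 at 1000 nM, 18 to 23 at 500 nM, 16 to 19 for 1000 nM against 500 nM, 16 to 22 for 500 nM against 100 nM, 14 to 19 for the middle against the low doses and 26 to 28 in the trend. The replicate block gave 27 at 1000 nM, 21 at 500 nM and 28 in the trend, and moved no count by over 1.5 times. For 500 nM against 100 nM, whose alternatives were chosen after seeing the data, only the groups compared in the fit gave 10. At 1 nM, where 3 were called, the count was 1 with median centring, with no mean-variance trend or with the mean over probe sets, 0 with no level filter and 5 with only the groups compared, and 0 to 2 with 1 array left out. At 5 nM, also with 3, it was 1 with no level filter, no mean-variance trend or the mean over probe sets, 0 with only the groups compared, and 0 to 3 with 1 array left out. With only the groups compared 1 was called at 10 nM and 2 at 100 nM, the mean over probe sets gave 1 at 100 nM, and without DMSO replicate 1 there was 1 at 0.1 nM, where the range was 0 to 1. The cause of these moves was not tested.

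Directions of single members reversed in few settings, mostly for changes near 0. With the mean over every probe set of a gene, which takes in discordant ones and those under the level minimum, VEGFA gave 0.43 at 1000 nM and 0.0655 at 500 nM, EGLN1 0.30 at 1000 nM, P4HA1 -0.0459 at 1000 nM and P4HA2 -0.11 at 500 nM. It also took the calls of HK2 (0.02) and TPI1 (0.09) at 1000 nM and of EGLN1 (-0.05) and TPI1 (0.06) at 500 nM, and moved called values by over 1.5 times for PFKP (0.59), KDM3A (0.31), ANKRD37 (0.63), PFKFB4 (0.65), PDK1 (0.13) and BNIP3L (-0.12) at 1000 nM and for PFKP (0.52), PFKFB4 (0.76), ANKRD37 (0.18) and PKM (0.58) at 500 nM. For PFKP, KDM3A, ANKRD37, PFKFB4 and P4HA1 the only other probe set lay under the level minimum, so these moves are not a disagreement between tested probe sets. That of P4HA1 had 27.4, 6.97 and 6.91 in the DMSO arrays and 8.33, 8.66 and 7.60 at 1000 nM. With quantile normalisation HK1 at 1000 nM gave 0.00103 and P4HA1 at 500 nM 0.000273, and with median centring P4HA2 and GAPDH at 500 nM gave -0.00584 and -0.000228. With 1 array left out, HK1 at 1000 nM ran from -0.0926 to 0.0394. At 500 nM these ranges were -0.0853 to 0.0348 for PGAM1, -0.0458 to 0.12 for P4HA2, -0.15 to 0.17 for P4HA1, -0.00861 to 0.0419 for GAPDH and -0.0762 to 0.0943 for PDK1. With only the groups compared, ALDOA, HK2, GPI, TPI1, BNIP3L and ANKRD37 lost their calls at 500 nM. Calls were gained at 1000 nM for P4HA2 with the mean over probe sets (-0.19) and for GAPDH with that mean (0.07), with median centring (0.07) and without 1000 nM replicate 3 (0.09). At 500 nM they were gained for HK1 (0.32), PFKL (0.31) and HIF1A (-0.16) without 500 nM replicate 3, for HIF1A with quantile normalisation (-0.13) and for MXI1 without 500 nM replicate 2 (0.27). The number of arrays and the offset limit what can be seen in dim probe sets.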
